A study of Mus musculus with 3 samples.

Results

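The genes examined here encode the enzymes, transporters and regulators of glycolysis together with genes of the response to low oxygen. They are 35 of the 47007 gene symbols in the deposited table and were taken by name, with earlier results of these data known. Every one of the 35 was present on a single row of the table. The libraries are bulk RNA-seq of the aorta-gonad-mesonephros (AGM) of C57BL/6J mice at E11 (embryonic day 11), the region in which blood stem cells arise along the dorsal aorta. All 3 populations were wild type, were sorted free of CD31, CD45 and cKit, and differed in their staining for the proteoglycan NG2 and the receptor PDGFRβ. The DP (double-positive) population was NG2+ PDGFRβ+ and is labelled as vascular smooth muscle. The PDGFRβ-S (PDGFRβ-single) population was NG2- PDGFRβ+ and is labelled sub-vSMCs. The DN (double-negative) population is labelled stroma without either protein, although the study's gate is given as NG2- with low or no PDGFRβ. The numbers of embryos and cells behind each library are not stated. Each population gave 1 library, which leaves every value without a replicate and every comparison without a p-value, so that differences describe these libraries only.

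Glycolysis splits glucose into pyruvate, which enters the mitochondria or is turned into lactate and exported. Cells short of oxygen stabilise the HIF alpha subunits, which pair with ARNT and bind DNA at a short core motif near many genes of glucose uptake, glycolysis and lactate export. The prolyl hydroxylases of the Egln family mark the alpha subunits for destruction when oxygen is present, and some of them are in turn induced by HIF.

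The values are TPM, reads per gene length scaled so that each library adds up to 1000000. In all, 10666564 reads were recovered from the values in DP, 9456829 in PDGFRβ-S cells and 11477921 in DN cells, so that 3 reads of a gene of 2 kb stood for 0.388 TPM in DP cells, 0.325 in PDGFRβ-S cells and 0.305 in DN cells. The intervals below are 95% intervals of these reads and cover counting error only. The ribosomal RNA share of TPM was 12.3% in DP, 0.624% in PDGFRβ-S cells and 1.14% in DN cells. It was counted over genes annotated as ribosomal RNA outside the mitochondrial genome, with the gene Gm42418 included by name. The mitochondrial shares were 10.5% in DP cells, 25.5% in PDGFRβ-S cells and 24.4% in DN cells, and the nuclear protein-coding shares 56.5% in DP cells, 43.4% in PDGFRβ-S cells and 46.3% in DN cells. Against the total of nuclear protein-coding genes, every log2 ratio moves by -0.29 for DP against DN, by 0.09 for PDGFRβ-S against DN and by -0.38 for DP against PDGFRβ-S, before the pseudocount. The 11 smooth muscle and mural markers summed to 8710 TPM in DP cells, 259 in PDGFRβ-S cells and 137 in DN cells, all 11 of them above 1 TPM in DP cells. The 13 erythroid and blood markers summed to 1724 TPM in DP cells, 19418 in PDGFRβ-S cells and 19637 in DN cells, with 3 of them listed at 0 in DP cells, 2 in PDGFRβ-S cells and 2 in DN cells. The 17 sympathetic and neuronal markers summed to 50.7 TPM in DP cells, 46.5 in PDGFRβ-S cells and 498 in DN cells, with 8 of them listed at 0 in DP cells, 8 in PDGFRβ-S cells and 0 in DN cells. For 13 skeletal muscle markers the sums were 122 TPM in DP cells, 156 in PDGFRβ-S cells and 345 in DN cells, and for 9 endothelial markers 16.1 TPM in DP cells, 4.43 in PDGFRβ-S cells and 6.66 in DN cells. Chrna1 made up most of the muscle sums in DP and PDGFRβ-S, at 98.7 TPM in DP cells, 141 in PDGFRβ-S cells and 108 in DN cells. Flt1 made up most of the endothelial sum in DP, at 10.4 TPM. Of the 9 endothelial markers, 4 were listed at 0 in each library. In bulk samples, fewer cells of a type and less RNA per cell cannot be told apart.

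Most glycolytic enzymes were highest in the DP library and lowest in PDGFRβ-S. The 18 enzymes among the 35 genes summed to 5273 TPM in DP cells, 1352 TPM in PDGFRβ-S cells and 2320 TPM in DN cells. The Eno1 copy Eno1b, described below, is not in these sums. As shares of nuclear protein-coding TPM these sums were 0.932% in DP cells, 0.311% in PDGFRβ-S cells and 0.501% in DN cells. Of the 35 genes, 21 reached 10 TPM in at least 1 library and 14 stayed under 10 TPM in all 3. Of all 35, 23 were in the order DP, DN, PDGFRβ-S from high to low, and 8 in the order DN, PDGFRβ-S, DP. Slc2a3 and Slc16a1 were in the order DN, DP, PDGFRβ-S, Pdk3 in the order DP, PDGFRβ-S, DN and Pdk4 in the order PDGFRβ-S, DP, DN. These orders are those of TPM as deposited. On nuclear protein-coding totals Pgk1, Ldhb, Pfkp, Epas1 and Arnt were lower in DP than in DN. The log2 ratios there were -0.06 for Pgk1 and -0.18 for Ldhb. Slc16a1 was then highest in PDGFRβ-S. Some genes passed 10 TPM only in the library in which they were high, so the counts over genes at that level are a description. Among the 21 genes at 10 TPM or more, 17 were highest in DP as deposited, or 81.0%, against 48.8% of all 8419 symbols at that level. Also 17 of the 21 were lowest in PDGFRβ-S, against 48.9% of those symbols. The plot of levels shows the 35 genes by role.

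**Figure D1:**
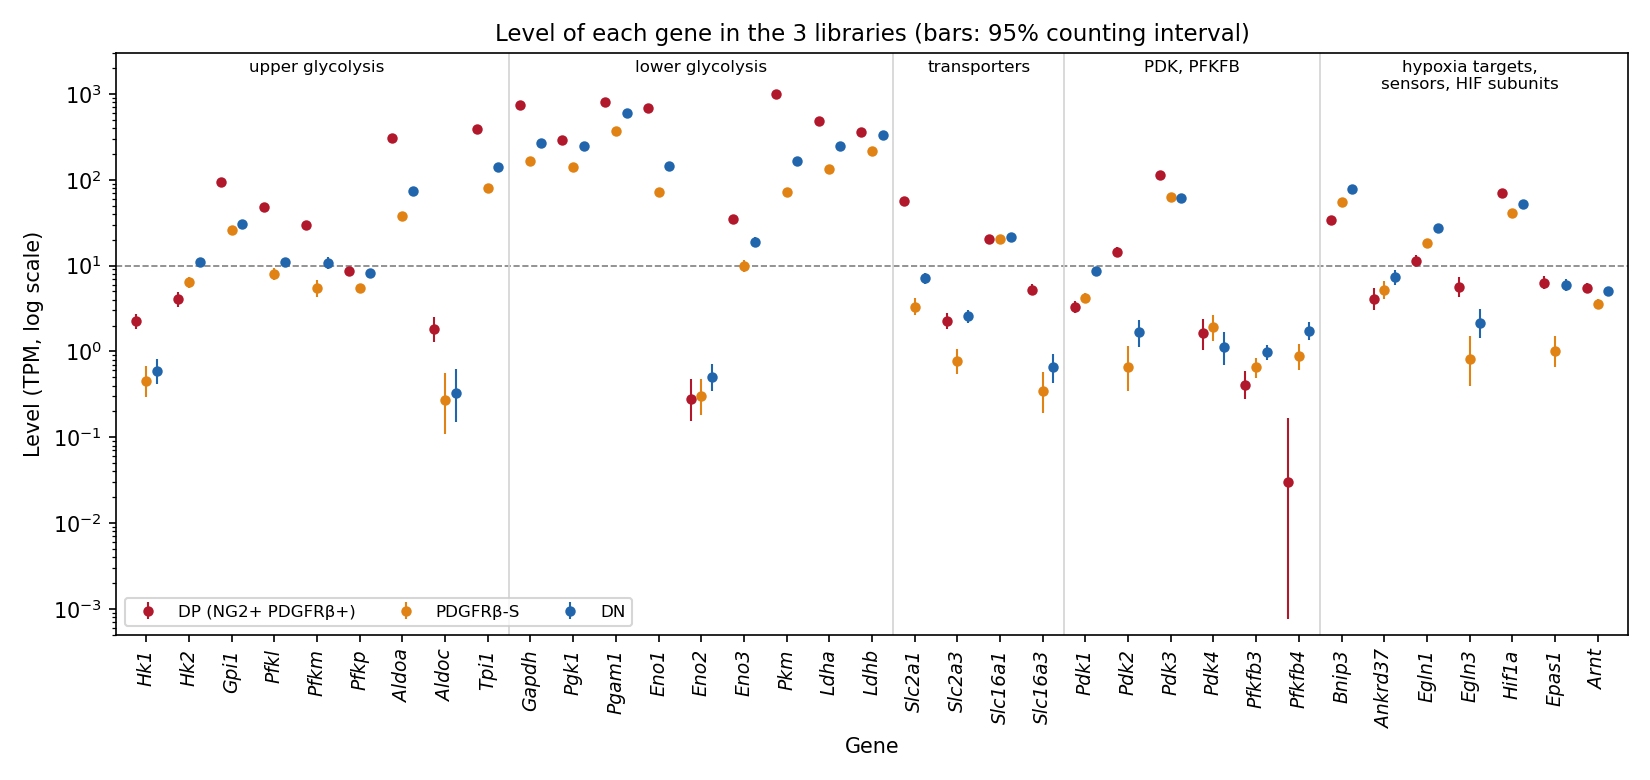
Level in TPM (log axis) of each of the 35 genes in the DP, PDGFRβ-S and DN libraries, with 95% counting intervals as bars and the level of 10 TPM as a dashed line. Pkm, at 1003 TPM in DP cells, 71.6 in PDGFRβ-S cells and 167 in DN cells, spreads most among the abundant enzymes, while Bnip3 and Egln1 are lowest in DP.

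The first comparison sets the NG2+ PDGFRβ+ smooth muscle population against the remaining stroma. Genes were called higher or lower from a 2-fold difference on the scale of log2((TPM + 1)/(TPM + 1)) and a level of 10 TPM or more in the higher of both libraries. Of the 35 genes 21 could be counted in DP against DN, and 10 of them were higher in DP, against a background of 19.0% of all 8268 symbols measured. Another 3 were lower, against a background of 16.2%, and 8 lay within the limit. The median log2 ratio of the 21 genes was 0.97, against 0.07 for all symbols measured. On nuclear protein-coding totals 10 genes were higher and 5 lower, with a median of 0.37 against -0.35 for all symbols, and the background was 12.2% higher and 28.5% lower.

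Slc2a1, which encodes the glucose transporter GLUT1, had the largest log2 ratio of TPM + 1 of the 35 genes between DP and DN. It stood at 56.3 TPM in DP cells (53.1 to 59.7), 3.32 TPM in PDGFRβ-S cells (2.64 to 4.14) and 7.16 TPM in DN cells (6.16 to 8.27). The DP level was 7.87-fold that of DN (6.73 to 9.25) and 16.95-fold that of PDGFRβ-S (13.5 to 21.5). An antisense gene over Slc2a1 (chr4:119108711-119137983, mm10), Gm12868, was at 48.3 TPM in DP cells, 2.08 in PDGFRβ-S cells and 4.87 in DN cells, and reads of the pair cannot be told apart without strand. Slc2a3, the glucose transporter GLUT3, was at 2.27 TPM in DP cells, 0.774 in PDGFRβ-S cells and 2.56 in DN cells, so GLUT1 was the leading of both transporters in every library.

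In the upper part of the pathway, 5 of the 6 enzymes measured were higher in DP than in DN and 1 was lower. The background over all symbols was 19.0% higher and 16.2% lower. Gpi1, which turns glucose 6-phosphate into the fructose form, was at 95.3 TPM in DP cells, 25.7 TPM in PDGFRβ-S cells and 30.3 TPM in DN cells, 3.15-fold higher in DP than in DN (2.96 to 3.35). The liver-type phosphofructokinase Pfkl, a subunit of the enzyme of the committed step, was at 48.7 TPM in DP cells, 8.0 TPM in PDGFRβ-S cells and 10.9 TPM in DN cells, a fold of 4.44 for DP over DN (3.87 to 5.12). The muscle-type subunit Pfkm was at 29.9 TPM in DP cells, 5.43 TPM in PDGFRβ-S cells and 10.6 TPM in DN cells, a fold of 2.81 (2.32 to 3.42). Both subunits were thus highest in DP, while the platelet-type subunit Pfkp, at 8.63 TPM in DP cells, 5.44 in PDGFRβ-S cells and 8.10 in DN cells, stayed under 10 TPM and differed little between DP and DN (1.07-fold, 0.931 to 1.22). Pfkp overlaps Pitrm1 on the other strand, at 109 TPM in DP cells, 40.3 in PDGFRβ-S cells and 65.1 in DN cells. Pfkm overlaps Senp1, at 6.20 TPM in DP cells, 6.78 in PDGFRβ-S cells and 7.86 in DN cells. Reads in these overlaps cannot be told apart without strand. Aldoa, the aldolase of muscle and most embryonic tissue, was at 305 TPM in DP cells, 37.4 TPM in PDGFRβ-S cells and 74.7 TPM in DN cells, 4.08-fold higher in DP than in DN (3.81 to 4.37). Tpi1, which interconverts the triose phosphates, was at 386 TPM in DP cells, 81.0 TPM in PDGFRβ-S cells and 140 TPM in DN cells, 2.75-fold higher in DP than in DN (2.63 to 2.88).

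At the first step of the pathway Hk2 was lower in DP than in DN. Hk2, the hexokinase typical of insulin-responsive and growing tissue (chr6:82725025-82774454, mm10), was at 4.03 TPM in DP cells (3.30 to 4.87), 6.39 TPM in PDGFRβ-S cells (5.54 to 7.33) and 10.9 TPM in DN cells (9.78 to 12.0). DP held 0.371 of the DN level (0.296 to 0.462), a log2 ratio of -1.24. Hk1, the hexokinase of most tissues, was at 2.23 TPM in DP cells (1.83 to 2.70), 0.455 in PDGFRβ-S cells (0.298 to 0.667) and 0.590 in DN cells (0.413 to 0.817). Both hexokinases together were low in every library, and DP held more Hk1 and less Hk2 than DN. With a pseudocount of 5 TPM the Hk2 difference was under 2-fold.

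In the lower part, 3 of 8 enzymes measured were higher in DP than in DN, none was lower and 5 lay within the limit. The same background of 19.0% higher and 16.2% lower applies to this small group. Gapdh, the dehydrogenase often used as a constant reference gene, was at 736 TPM in DP cells (727 to 745), 166 TPM in PDGFRβ-S cells (162 to 170) and 265 TPM in DN cells (260 to 270), with no overlap of these intervals. Eno1, the widely expressed enolase, was at 686 TPM in DP cells, 72.8 TPM in PDGFRβ-S cells and 146 TPM in DN cells, 4.71-fold higher in DP than in DN (4.57 to 4.85). Pkm, the pyruvate kinase outside liver and red cells (chr9:59656368-59679375, mm10), was at 1003 TPM in DP cells (989 to 1017), 71.6 TPM in PDGFRβ-S cells (68.3 to 75.1) and 167 TPM in DN cells (162 to 172). Its DP level was 6.00-fold that of DN (5.80 to 6.20). The table holds 1 value per gene, so the splice forms of Pkm were not resolved.

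The enzymes between Gapdh and Eno1 differed less between DP and DN. Pgk1, the first ATP-forming enzyme of the pathway, was at 288 TPM in DP cells, 142 TPM in PDGFRβ-S cells and 246 TPM in DN cells, a fold of 1.17 for DP over DN (1.12 to 1.22). Pgam1, the phosphoglycerate mutase, was at 799 TPM in DP cells, 371 TPM in PDGFRβ-S cells and 607 TPM in DN cells, a fold of 1.32 (1.27 to 1.37). Neighbouring steps of the pathway thus did not share 1 fold: Gapdh, Eno1 and Pkm were past the limit and Pgk1 and Pgam1 were not. Eno3, the enolase of striated muscle, was at 35.03 TPM in DP cells, 9.94 TPM in PDGFRβ-S cells and 19.1 TPM in DN cells, 1.84-fold higher in DP than in DN (1.58 to 2.14) and within the limit. The 13 skeletal muscle markers, of which 7 were at 1 TPM or more in DP, 5 in PDGFRβ-S cells and 11 in DN cells, summed lower in DP than in DN, and their part in Eno3 was not tested.

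The subunits of lactate dehydrogenase separated. Ldha, the subunit favoured in tissues that form lactate, was at 484 TPM in DP cells (474 to 494), 132 TPM in PDGFRβ-S cells (127 to 137) and 247 TPM in DN cells (241 to 254), with a fold of 1.96 for DP over DN (1.89 to 2.03) that stayed just inside the limit. Ldhb, the subunit favoured in heart, was at 361 TPM in DP cells (347 to 375), 217 TPM in PDGFRβ-S cells (207 to 227) and 335 TPM in DN cells (324 to 347), a fold of 1.08 (1.02 to 1.13). Ldha was therefore the more abundant subunit in DP and Ldhb in both other libraries. This also held by reads per merged exon length, while by reads not divided by length Ldha led in all 3 libraries.

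Lactate leaves cells through monocarboxylate transporters. Slc16a1, which encodes MCT1, hardly differed, at 20.7 TPM in DP cells (18.6 to 22.9), 20.5 TPM in PDGFRβ-S cells (18.6 to 22.5) and 21.4 TPM in DN cells (19.5 to 23.5). The fold of DP over DN was 0.965 (0.838 to 1.11), an interval of counting error that holds 1. Slc16a3, which encodes the exporter MCT4, was at 5.26 TPM in DP cells (4.51 to 6.09), 0.347 in PDGFRβ-S cells (0.190 to 0.582) and 0.650 in DN cells (0.432 to 0.939). Its reads gave a fold of 8.09 for DP over DN (5.41 to 12.5), but its level stayed under 10 TPM and it was not counted.

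The pyruvate dehydrogenase kinases, which switch off the entry of pyruvate into the mitochondrial cycle, did not move as 1 group. Pdk2, a kinase of many tissues, was at 14.5 TPM in DP cells (12.6 to 16.5), 0.666 TPM in PDGFRβ-S cells (0.344 to 1.16) and 1.66 TPM in DN cells (1.14 to 2.35), 8.71-fold higher in DP than in DN (5.99 to 13.1). Pdk3, the most abundant kinase in all 3 libraries, was at 113 TPM in DP cells, 62.4 TPM in PDGFRβ-S cells and 60.5 TPM in DN cells, 1.88-fold higher in DP than in DN (1.72 to 2.04) and within the limit. Pdk1, the kinase known as a target of HIF, was at 3.32 TPM in DP cells (2.80 to 3.90), 4.20 in PDGFRβ-S cells (3.67 to 4.80) and 8.73 in DN cells (7.97 to 9.55), 0.380 of the DN level in DP (0.313 to 0.458). Pdk4, a kinase induced by fasting, was at 1.62 TPM in DP cells, 1.91 in PDGFRβ-S cells and 1.12 in DN cells with overlapping intervals in all 3 libraries. The PFKFB enzymes, which set the level of an activator of phosphofructokinase, were scarce: Pfkfb3 was at 0.410 TPM in DP cells, 0.654 in PDGFRβ-S cells and 0.978 in DN cells. Pfkfb4 had 1 read in DP, 35 in PDGFRβ-S cells and 74 in DN cells, a ratio of 0.0172 of DP to DN with a counting interval of 0.000430 to 0.0989.

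Bnip3, a well-known target of HIF, and the oxygen sensor Egln1 were lower in DP than in DN. Bnip3, which promotes the removal of mitochondria (chr7:138890836-138909519, mm10), was at 34.2 TPM in DP cells (31.01 to 37.7), 54.7 TPM in PDGFRβ-S cells (51.0 to 58.7) and 78.2 TPM in DN cells (73.8 to 82.7). DP held 0.438 of the DN level (0.391 to 0.489), a log2 ratio of -1.17. Egln1, which encodes the main HIF prolyl hydroxylase PHD2 (chr8:124908596-124949254, mm10), was at 11.3 TPM in DP cells (9.54 to 13.2), 18.3 TPM in PDGFRβ-S cells (16.2 to 20.5) and 27.3 TPM in DN cells (24.9 to 29.8). DP held 0.413 of the DN level (0.342 to 0.496), a log2 ratio of -1.21, which was under 2-fold with a pseudocount of 5 TPM. Ankrd37, a small ankyrin repeat gene induced by hypoxia, was also lowest in DP cells, with 4.11 TPM, against 5.17 in PDGFRβ-S cells and 7.30 in DN cells, and it overlaps Ufsp2, which was at 58.4 TPM in DP cells, 29.3 in PDGFRβ-S cells and 40.1 in DN cells. The erythroid, sympathetic and skeletal muscle marker sums were also lower in DP than in DN, and their part in these differences was not tested.

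Not every oxygen-regulated gene followed Bnip3. Egln3, the hydroxylase PHD3, was at 5.63 TPM in DP cells (4.28 to 7.28), 0.815 in PDGFRβ-S cells (0.391 to 1.5) and 2.14 in DN cells (1.42 to 3.09), with DP highest where Egln1 was lowest. Hif1a, the broadly expressed alpha subunit, was at 70.7 TPM in DP cells (67.5 to 73.9), 40.5 TPM in PDGFRβ-S cells (38.3 to 42.7) and 51.6 TPM in DN cells (49.2 to 54.1), a fold of 1.37 for DP over DN (1.28 to 1.46). An overlapping gene on the other strand of Hif1a, Gm15283, was at 45.4 TPM in DP cells, 10.9 in PDGFRβ-S cells and 19.6 in DN cells, and the reads of both cannot be told apart. Epas1, the second alpha subunit, was at 6.33 TPM in DP cells (5.29 to 7.52), 1.02 in PDGFRβ-S cells (0.661 to 1.51) and 5.89 in DN cells (5.0 to 6.90). Arnt, the shared partner, was at 5.53 TPM in DP cells, 3.56 in PDGFRβ-S cells and 4.99 in DN cells. The RNA of these subunits says nothing of their protein, which oxygen controls after translation.

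The promoters of genes on either side of the DP to DN comparison are shown so that the HIF core motif, ACGTG, can be read in its place. RefSeq promoters on GRCm38.p6 were matched for 33 of the 35 genes, and the 250 bases before the start nearest the 5′ end of the deposited gene were searched on both strands. The motif was held by 12 of the 21 genes at 10 TPM or more (57.1%), against 23.4% of 5610 genes at that level, and by 16 of the 33 (48.5%), against 17.5% of 18632 genes. A variant, GCGTG, was held by 11 of the 21 (52.4%), against 47.1%. The core motif was present in 3 of the 10 genes higher in DP than in DN (Pfkm, Slc2a1 and Pdk2) and in all 3 lower ones (Hk2, Bnip3 and Egln1), so it was found on both sides. GCGTG was present in 4 of the 10 higher genes and in 2 of the 3 lower ones. The list was chosen for its link to glycolysis and hypoxia, and a match is a description, not a site of binding. Capitals mark the core motif, which reads CACGT where it lies on the other strand, and a CACGTG holds it on both. Hk2 (chr6:82774455-82774704 on the minus strand) and Bnip3 (chr7:138909520-138909756 on the minus strand) were lower in DP, Pdk2 (chr11:95041372-95041621 on the minus strand), Pfkm (chr15:98092339-98092588 on the plus strand) and Eno1 (chr4:150236458-150236707 on the plus strand) were higher, and Ldha (chr7:46845554-46845803 on the plus strand) lay just inside the limit. Bases from the first annotated exon of the gene onward were searched but left out of the sequences shown, and the Egln1 match lay in such bases. Among the 10 higher genes, the bases before such an exon were 0 for Pfkl and Aldoa, 42 for Pkm and 112 for Tpi1. The other higher genes had 216 or more. The lower genes had 250 (Hk2), 237 (Bnip3) and 180 (Egln1).
Hk2: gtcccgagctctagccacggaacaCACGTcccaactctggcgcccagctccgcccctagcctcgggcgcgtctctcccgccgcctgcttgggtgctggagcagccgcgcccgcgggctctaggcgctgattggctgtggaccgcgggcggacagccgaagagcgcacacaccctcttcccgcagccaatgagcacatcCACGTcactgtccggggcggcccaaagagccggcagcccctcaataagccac
Bnip3: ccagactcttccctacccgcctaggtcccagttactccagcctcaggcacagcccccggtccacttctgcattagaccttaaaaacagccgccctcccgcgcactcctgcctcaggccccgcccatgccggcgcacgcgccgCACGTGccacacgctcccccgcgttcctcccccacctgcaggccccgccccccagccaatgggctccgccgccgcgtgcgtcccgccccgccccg
Pdk2: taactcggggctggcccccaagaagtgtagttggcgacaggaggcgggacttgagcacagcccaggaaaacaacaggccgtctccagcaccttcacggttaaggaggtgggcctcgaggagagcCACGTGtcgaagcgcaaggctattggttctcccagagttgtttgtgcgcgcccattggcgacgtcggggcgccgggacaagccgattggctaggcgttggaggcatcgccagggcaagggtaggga
Pfkm: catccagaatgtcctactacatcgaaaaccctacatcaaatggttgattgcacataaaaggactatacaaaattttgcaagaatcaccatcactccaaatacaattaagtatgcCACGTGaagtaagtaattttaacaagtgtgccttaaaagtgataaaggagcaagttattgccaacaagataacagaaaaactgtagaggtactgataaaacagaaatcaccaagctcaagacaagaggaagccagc
Ldha: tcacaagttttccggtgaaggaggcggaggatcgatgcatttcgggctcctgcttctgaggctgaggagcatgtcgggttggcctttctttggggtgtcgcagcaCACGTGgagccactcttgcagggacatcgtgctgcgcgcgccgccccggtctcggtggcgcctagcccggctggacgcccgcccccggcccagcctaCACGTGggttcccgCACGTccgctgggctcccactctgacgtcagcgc
Eno1: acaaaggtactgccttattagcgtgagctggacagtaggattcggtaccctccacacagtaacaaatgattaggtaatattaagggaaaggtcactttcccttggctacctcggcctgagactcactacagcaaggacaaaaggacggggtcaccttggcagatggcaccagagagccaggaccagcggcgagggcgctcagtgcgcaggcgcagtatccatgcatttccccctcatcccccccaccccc
Hk2 and Ldha hold the core motif at several places, while the Eno1 window, from a gene with a fold of 4.71, holds no ACGTG but 1 GCGTG, which is not in capitals.

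The second comparison sets PDGFRβ+ cells without NG2 against DN stroma. Of 19 genes that could be counted, 0 were higher in PDGFRβ-S, against a background of 1.5% of 7376 symbols, and 1 was lower, against a background of 8.15%. The lower gene was Pkm, at 71.6 TPM in PDGFRβ-S against 167 TPM in DN cells, 0.428 of the DN level (0.405 to 0.453). The differences were small. Of the 19 log2 ratios 18 were under 0, with a median of -0.68, against -0.27 for all symbols. The share of all symbols under 0 was not computed. On nuclear protein-coding totals Slc16a1 had a log2 ratio of 0.03. Eno1, at 0.50 of the DN level (0.477 to 0.523), Aldoa, at 0.501 (0.450 to 0.557), and Ldha, at 0.534 (0.510 to 0.559), lay nearest to the limit on the scale with the pseudocount. Pdk3 was the exception at 1.03 (0.939 to 1.13), followed by Slc16a1 at 0.956 (0.836 to 1.09). Epas1 had the lowest ratio of all 35 genes in this pair, 0.173 of the DN level (0.109 to 0.266), but stayed under 10 TPM. Quantile normalization of the 3 libraries made the split of all symbols past the limit nearly even, with 15.6% of them higher as deposited and 48.1% after it, and left 0 of the genes higher and 1 lower.

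The third comparison sets the 2 PDGFRβ+ populations against each other, with and without NG2. Of 20 genes that could be counted, 14 were higher in DP than in PDGFRβ-S, against a background of 30.6% of 7734 symbols, and 0 were lower, against a background of 11.2%. The median log2 ratio was 1.86, against 0.40 for all symbols. The 14 were the 10 genes that were also higher in DP than in DN together with Pgk1, Pgam1, Eno3 and Ldha. Both comparisons share the DP library, so they are not independent. Among the 14, Pdk2 had the largest fold, 21.7 for DP over PDGFRβ-S (12.2 to 42.7), Slc2a1 followed at 16.95 and Pkm at 14.0 (13.3 to 14.7). Eno1 was at 9.43-fold (9.05 to 9.82) and Aldoa at 8.14-fold (7.42 to 8.95). Pgk1 at 2.03-fold (1.92 to 2.15) and Pgam1 at 2.15-fold (2.06 to 2.25) were under 2-fold on nuclear protein-coding totals. On those totals 13 genes were higher and 2, Bnip3 and Egln1, were lower, with a background of 19.9% higher and 22.6% lower. The 13 include Epas1, which was under 10 TPM as deposited and stood at 11.2 in DP cells and 2.35 in PDGFRβ-S cells after rescaling. Of all symbols past the limit in this pair, in either direction, 73.1% were higher in DP as deposited and 46.8% on nuclear protein-coding totals. For DP against DN these shares were 54.0% and 29.97%.

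**Figure D2:**
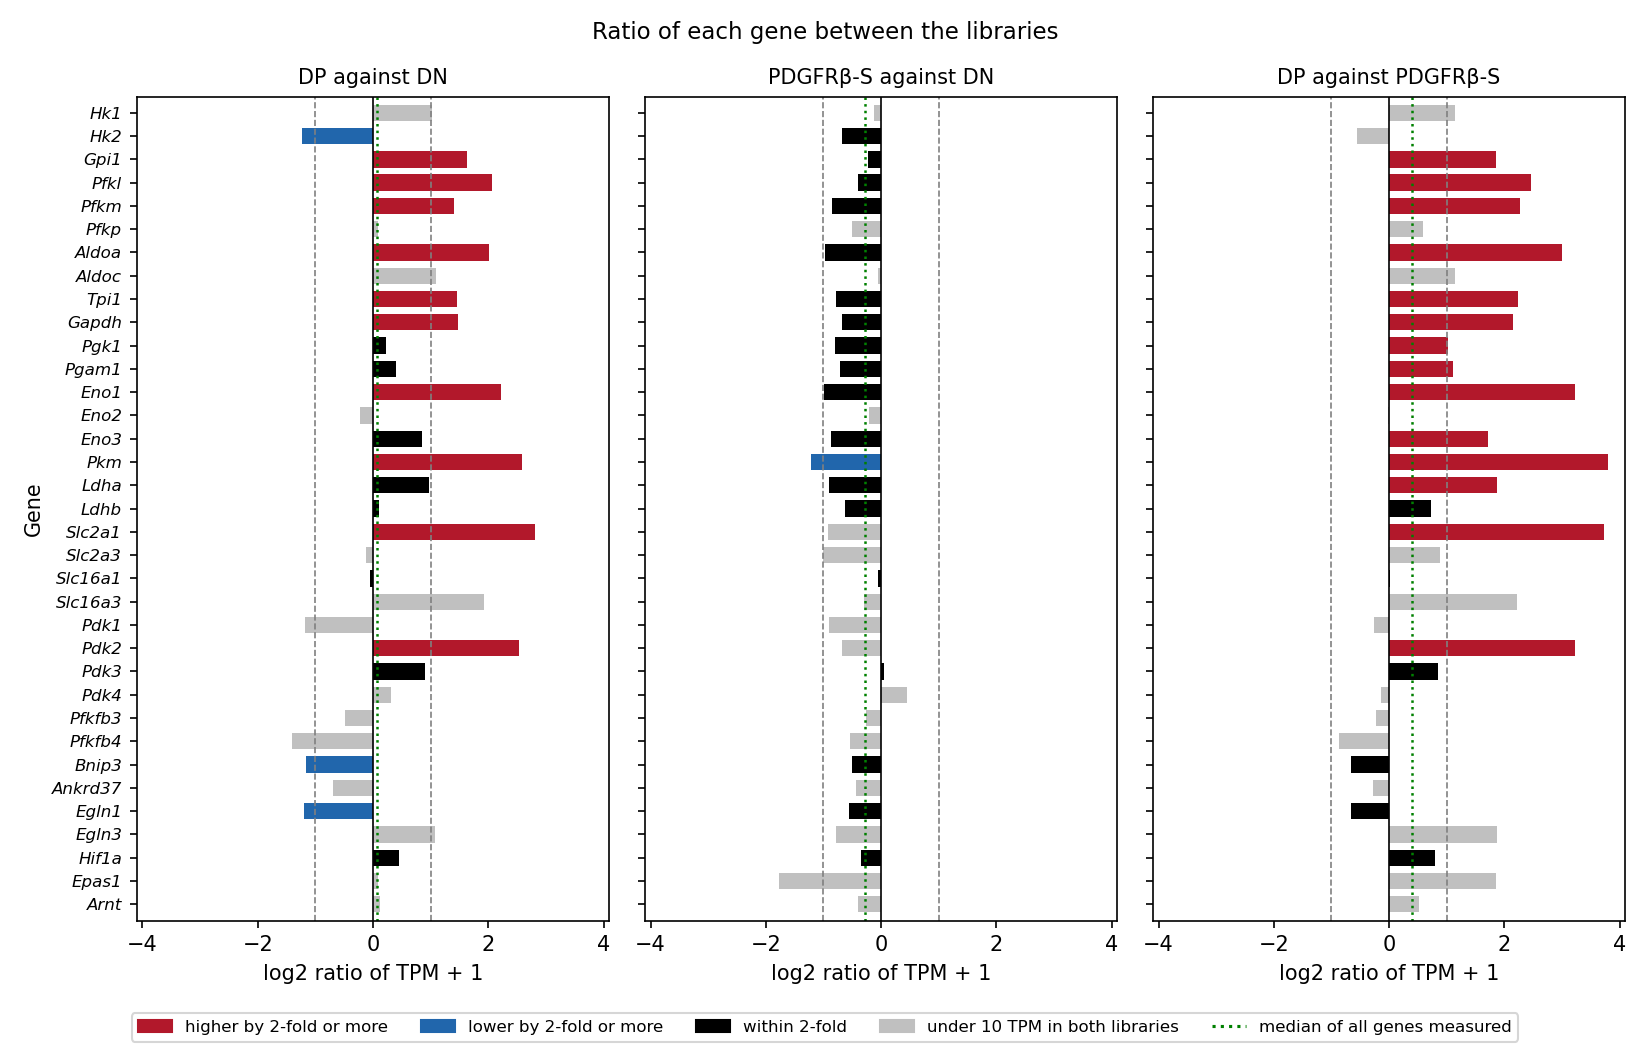
Ratio of TPM + 1 (log2) of each of the 35 genes in DP against DN, PDGFRβ-S against DN and DP against PDGFRβ-S, with the 2-fold limits as dashed lines and the median of all symbols measured as a dotted line. Red bars mark the 10, 0 and 14 genes counted as higher, blue bars the 3, 1 and 0 counted as lower, and grey bars genes under 10 TPM in both libraries.

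**Figure D3:**
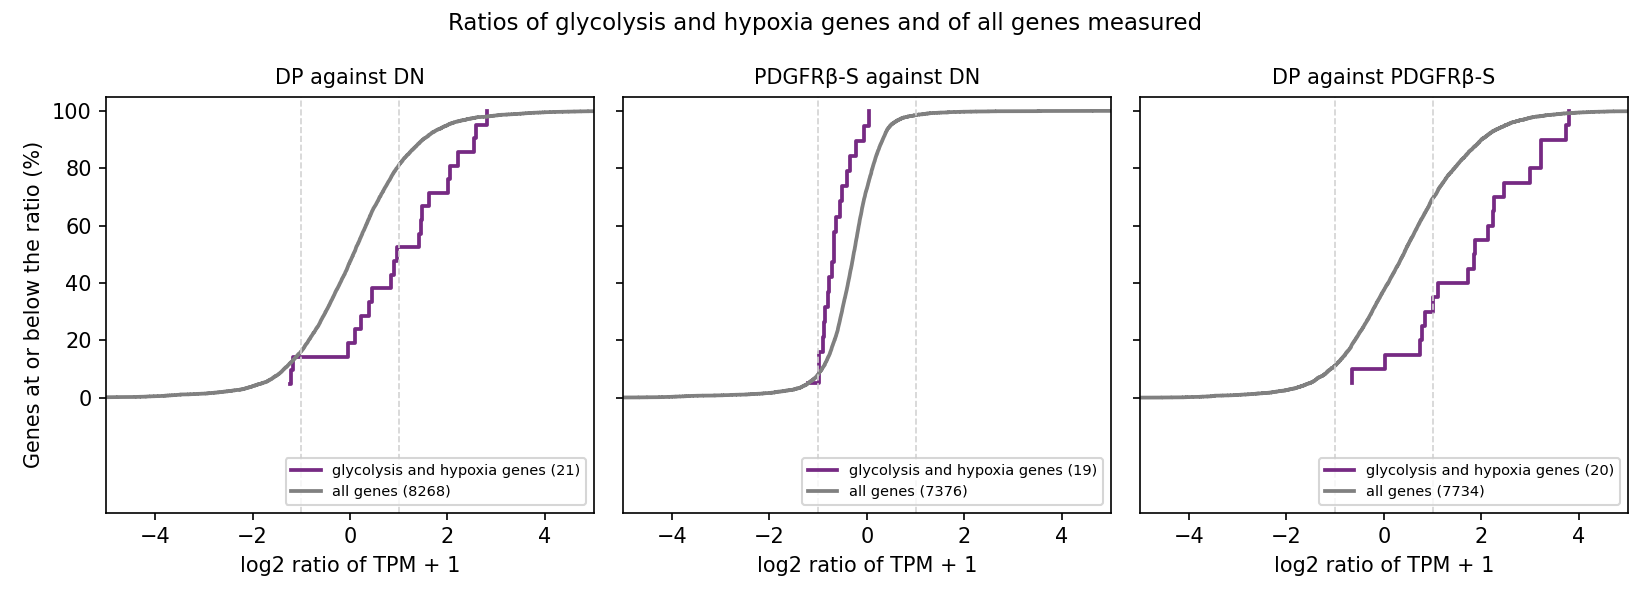
Share of genes (%) at or below each log2 ratio, for the glycolysis and hypoxia genes that could be counted (21, 19 and 20) and for all symbols measured (8268, 7376 and 7734), in the 3 comparisons. The medians are 0.97 against 0.07 for DP against DN, -0.68 against -0.27 for PDGFRβ-S against DN, and 1.86 against 0.40 for DP against PDGFRβ-S.

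Ratios of 2 genes within a library do not change when the library is rescaled for its ribosomal or mitochondrial share, but their size depends on the gene lengths used, while the fold of a pair between libraries does not. Pkm to Pgk1 was 3.48 in DP cells (3.36 to 3.61), 0.505 in PDGFRβ-S cells (0.473 to 0.539) and 0.679 in DN cells (0.649 to 0.709). Pgk1 was thus above Pkm in PDGFRβ-S and DN, and Pkm far above Pgk1 in DP cells. Eno1 to Pgam1 was 0.858 in DP cells (0.834 to 0.884), 0.196 in PDGFRβ-S cells (0.186 to 0.207) and 0.240 in DN cells (0.231 to 0.249). By reads per merged exon length it was 1.36 in DP cells, 0.310 in PDGFRβ-S cells and 0.380 in DN cells, so whether Eno1 or Pgam1 led in DP depends on the length, and Eno1 may share its reads with the copy Eno1b. Ldha to Ldhb was 1.34 in DP cells (1.28 to 1.40), 0.608 in PDGFRβ-S cells (0.574 to 0.645) and 0.737 in DN cells (0.706 to 0.770). Bnip3 to Pkm was 0.0341 in DP cells (0.0309 to 0.0376), 0.764 in PDGFRβ-S cells (0.702 to 0.832) and 0.467 in DN cells (0.438 to 0.498), the widest split of the pairs computed. In each of these pairs DP stood apart from both other libraries beyond counting error.

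Isoenzyme pairs changed their balance too. Hk1 to Hk2 was 0.554 in DP cells (0.420 to 0.731), 0.0713 in PDGFRβ-S cells (0.0455 to 0.108) and 0.0543 in DN cells (0.0375 to 0.0766). Slc16a3 to Slc16a1 was 0.254 in DP cells (0.211 to 0.305), 0.0169 in PDGFRβ-S cells (0.00918 to 0.0287) and 0.0303 in DN cells (0.0199 to 0.0444). By reads per merged exon length Slc16a3 to Slc16a1 was 0.418 in DP cells, 0.0279 in PDGFRβ-S cells and 0.0499 in DN cells. Between PDGFRβ-S and DN the intervals of these 2 ratios overlapped. Pdk2 to Pdk3 was 0.128 in DP cells (0.110 to 0.147), 0.0107 in PDGFRβ-S cells and 0.0275 in DN cells, while Pdk1 to Pdk3 was 0.0292 in DP cells (0.0245 to 0.0347), 0.0674 in PDGFRβ-S cells and 0.144 in DN cells (0.129 to 0.161). Relative to Pdk3, Pdk2 was thus highest and Pdk1 lowest in DP. Egln3 to Egln1 was 0.501 in DP cells (0.363 to 0.681), 0.0446 in PDGFRβ-S cells (0.0212 to 0.0832) and 0.0783 in DN cells (0.0515 to 0.115). Epas1 to Hif1a was 0.0895 in DP cells (0.0744 to 0.107), 0.0252 in PDGFRβ-S cells (0.0163 to 0.0374) and 0.114 in DN cells (0.0961 to 0.135), so that here PDGFRβ-S stood apart from both other libraries while the intervals of DP and DN overlapped. Across 11 families of related genes, 9 had the same leading gene in all 3 libraries, the exceptions being the lactate dehydrogenase subunits and the PFKFB enzymes.

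**Figure D4:**
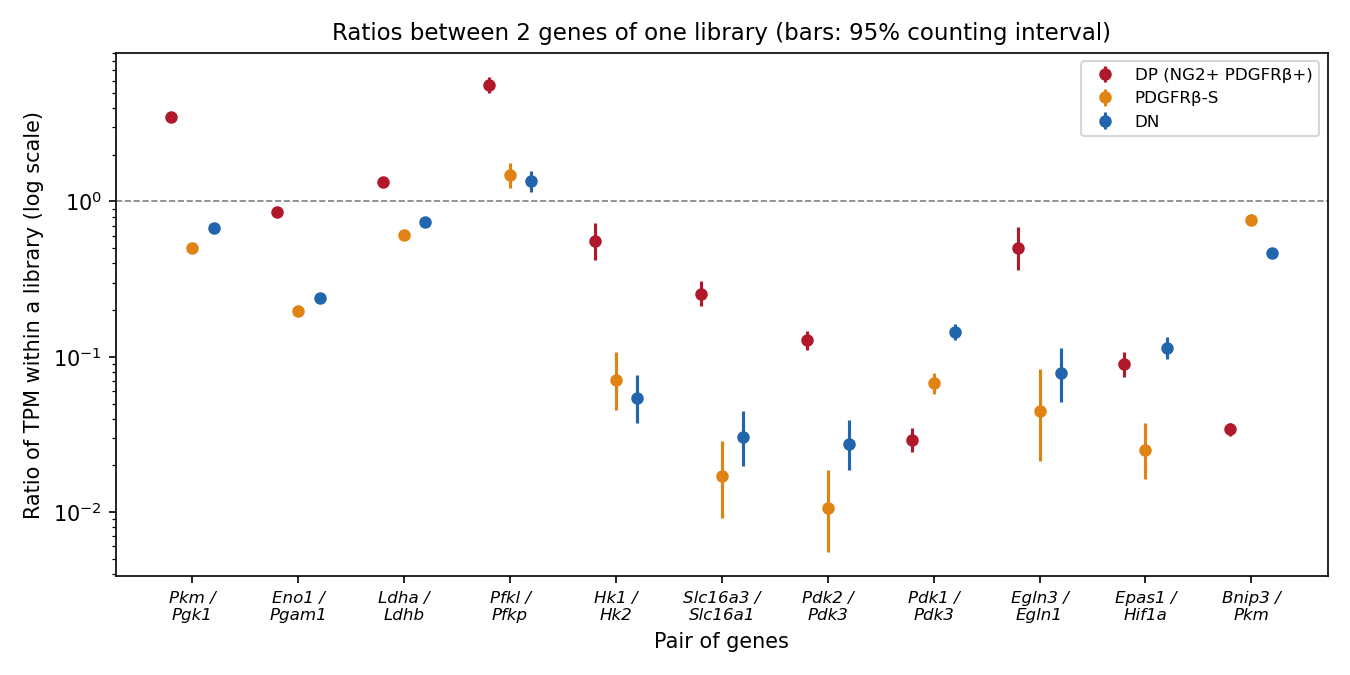
Ratio of TPM (log axis) of 11 pairs of genes within the DP, PDGFRβ-S and DN libraries, with 95% counting intervals as bars and equal levels as a dashed line. Ldha to Ldhb is 1.34 in DP cells, 0.608 in PDGFRβ-S cells and 0.737 in DN cells, so the pair is above equality only in DP, as is Pkm to Pgk1.

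The other genes under 10 TPM in all libraries were the brain-type aldolase Aldoc, at 1.82 TPM in DP cells, 0.274 in PDGFRβ-S cells and 0.329 in DN cells, and the neuronal enolase Eno2, at 0.281 TPM in DP cells, 0.303 in PDGFRβ-S cells and 0.505 in DN cells. The Eno2 intervals overlapped among the libraries. Of the 17 sympathetic and neuronal markers, 5 were at 1 TPM or more in DP cells, 7 in PDGFRβ-S cells and 17 in DN cells, and their part in Eno2 was not tested. Near-identical copies also limit at least 2 enzymes. Apart from Eno1b and Aldoart1, copies were sought only as processed pseudogenes named after a gene, so copies under other names were not examined. Eno1b, an intronless copy of Eno1, was listed at 1352 TPM in DP cells, 140 in PDGFRβ-S cells and 280 in DN cells, or 1.97 times Eno1 in DP cells, 1.92 in PDGFRβ-S cells and 1.92 in DN cells. Aldoart1, an intronless copy of Aldoa, was at 33.5 TPM in DP cells, 3.38 in PDGFRβ-S cells and 6.78 in DN cells, or 0.110 times Aldoa in DP cells, 0.0904 in PDGFRβ-S cells and 0.0908 in DN cells. Both copies kept a nearly constant ratio to their parent, so how the reads were divided between them cannot be told from the table, while adding the copies changed no count.

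Related genes outside the 35 were read the same way in DP against DN, against the same background of 19.0% of all symbols higher, 16.2% lower and a median log2 ratio of 0.07. Of 15 enzymes of the pentose phosphate and glycogen pathways measured, 8 were higher, 0 were lower and the median log2 ratio was 1.32. Tkt, the transketolase, was at 43.7 TPM in DP cells, 4.61 TPM in PDGFRβ-S cells and 7.63 TPM in DN cells, and Pgm2, a phosphoglucomutase, at 47.3 TPM in DP cells, 3.12 in PDGFRβ-S cells and 8.76 in DN cells. Of 20 other HIF targets measured, 8 were higher, 1 was lower and the median was 0.68. Gpx3, the secreted glutathione peroxidase, was at 203 TPM in DP cells, 28.3 TPM in PDGFRβ-S cells and 17.0 TPM in DN cells. Angptl4, an inhibitor of lipoprotein lipase, was at 38.4 TPM in DP cells, 5.45 TPM in PDGFRβ-S cells and 5.57 TPM in DN cells, while Plod2, a collagen lysyl hydroxylase and the lower gene, was at 18.9 TPM in DP cells, 28.4 in PDGFRβ-S cells and 45.4 in DN cells. The higher targets were thus 8 of 20 and the lower 1 of 20, a smaller share than the background of lower symbols. Of 6 genes of oxygen sensing 1 was higher, the hydroxylase Egln2, at 19.9 TPM in DP cells, 4.05 in PDGFRβ-S cells and 8.86 in DN cells. Of 7 genes of pyruvate entry 1 was higher, the dehydrogenase subunit Pdha1, at 80.3 TPM in DP cells, 22.0 in PDGFRβ-S cells and 27.2 in DN cells, and 1 lower, the phosphatase Pdp2, at 4.60 TPM in DP cells, 4.23 in PDGFRβ-S cells and 10.3 in DN cells. Of 6 other glycolytic genes measured 0 were past the limit. Bsg, the chaperone of the lactate transporters MCT1 and MCT4, was at 220 TPM in DP cells, 60.3 TPM in PDGFRβ-S cells and 79.8 TPM in DN cells, and its relative Emb at 13.3 TPM in DP cells, 11.5 in PDGFRβ-S cells and 31.5 in DN cells.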

How the data were processed

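The authors deposited TPM of 47069 rows with Ensembl identifiers, 1 column for each of the 3 libraries. Sorted cells were lysed directly, full-length cDNA of polyadenylated RNA was amplified and sequenced as single unstranded reads without molecular identifiers, and, per the submitters' processing notes, aligned with TopHat2 2.0.10 to mm10. The study's methods name Cufflinks for TPM of RefSeq transcripts and, for read counts, summarizeOverlaps on a GENCODE annotation. Which route gave the table is not stated: it carries Ensembl identifiers, and its steps fit whole reads per gene rather than RefSeq transcript estimates. A second sheet, whose 4 columns hold values of a gene pair and have names matching no sample, was not used.

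TPM of the 53 symbols on several rows were summed. Reads were recovered because TPM times gene length came in whole steps of a fixed size in each library. Of 9425 genes with 50 to 5000 reads, 65.8% were whole in every library (tolerance 0.002) at the summed length of the distinct exons of GENCODE M21. With the others given the shortest length from 0.5 to 2 times it that fitted, 99.9% were whole, against 0.333% of 300 genes searched in that way with shifted step sizes. Of the 35 genes 22 gave whole reads at the annotated length, and the searched length of the others may widen their intervals. That length was 0.731 to 2.74 times the length of merged exons (median 1.39), which affects levels between genes but not ratios of a gene between libraries. Intervals are exact Poisson (levels) or exact binomial (ratios) at 95%.

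Ratios used a pseudocount of 1 TPM, a limit of 2-fold and at least 10 TPM in the higher library, with all symbols as background. No replicate exists, so no test was made. Values are given for every gene at 10 TPM or more in a library, the rest of the 35 are accounted for, and genes of the other lists could be named only when past the limit and among the 2 highest or lowest ratios of their list. Such genes of the cell type and immediate early lists are given as sums. The exceptions, named as markers, overlapping genes, ribosomal genes or copies, were Chrna1, Flt1, Gm12868, Gm15283, Gm42418, Ufsp2, Pitrm1, Senp1, Eno1b and Aldoart1. The 35 genes and the 12 other lists (6 of the pathway, 5 of cell types and 1 of immediate early genes, which summed to 179 TPM in DP cells, 49.9 in PDGFRβ-S cells and 70.6 in DN) were chosen with earlier results of these data known. The promoters shown were chosen after the values were seen. Alternatives were pseudocounts of 0.1 and 5 TPM, minimum levels of 0, 5 and 30 TPM, limits of 1.5-fold and 4-fold, 4 rescalings, and the TPM of copies added. The computations were tested on simulated data. Python 3.11.15, numpy 2.4.6, pandas 2.3.3, scipy 1.17.1 and matplotlib 3.10.9 were used.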

Additional observations from a re-analysis of the deposited data

How the results depend on the processing

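Of 224 values of single genes past the limit, recomputed under 8 alternatives, 213 stayed at 2-fold or more, 11 were under 2-fold and 0 changed sign. The 11 were Hk2 and Egln1 (DP against DN) and Pgk1 (DP against PDGFRβ-S) with a pseudocount of 5 TPM, and Pgk1 and Pgam1 (DP against PDGFRβ-S) under each of the 4 rescalings. In DP against DN, 10 genes were higher under the rescalings too, and 6 at 4-fold. The count of lower genes there was 1 with a pseudocount of 5 TPM and at a minimum of 30 TPM, 5 with no minimum and 5 on nuclear protein-coding totals, which add Pdk1 and Ankrd37, and 0 at 4-fold. The median log2 ratio of DP against DN was 0.87, 0.45 and 1.21 with minimum levels of 5 TPM, none and 30 TPM. It was 0.37 on nuclear protein-coding totals, 0.71 without the 20 highest genes and 0.91 with the median of well-measured genes set to 0. For PDGFRβ-S against DN, 2 genes were lower at a minimum of 5 TPM and on nuclear totals, 3 with no minimum, 0 at 4-fold and 12 at 1.5-fold. For DP against PDGFRβ-S, 9 genes were higher at 4-fold, and 2 were lower on nuclear totals, under quantile normalization and at 1.5-fold. The median there was 1.72 with a pseudocount of 5 TPM, 1.11 with no minimum, 1.44 on nuclear totals, 1.60 without the 20 highest genes, 1.49 under quantile normalization and 1.60 with the median of well-measured genes set to 0, and the mean was 1.73. The summed enzymes were 9325 in DP cells, 3114 in PDGFRβ-S cells and 5012 in DN when nuclear protein-coding genes are scaled to 1000000, and 4270 TPM in DP cells, 981 in PDGFRβ-S cells and 1713 in DN cells without the highest enzyme of each library. By reads per merged exon length, 8 of 11 families kept 1 leading gene in all libraries, the phosphofructokinases being added to the exceptions. By reads not divided by length it was 9. The phosphofructokinases changed their leading gene, and the hexokinases were tied in DP, with 107 reads of Hk1 and 107 of Hk2. The lactate dehydrogenase subunits and the PFKFB enzymes were then no exceptions, with Ldha and Pfkfb3 leading in all libraries. No paired analysis was possible because each population had 1 library. With 1 library each, variation between embryos, sorts and cDNA preparations is not known, and DP differs from both other libraries in ribosomal, mitochondrial and erythroid RNA, which cannot be told apart from the population.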
